A study of Gallus gallus with 54 samples.

Results

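The comparison described here is of granulosa cells (GCs) from follicles labelled F5. It sets hens fed the steroid mestanolone (mes) against hens of the blank group (nc). Its members are the 3 libraries titled mes100.F5.G and the 3 titled nc.F5.G, 6 of the 54 libraries of the series. White Leghorn hens, 35 to 40 weeks old, were given 100 mg mes for 4 days, and nc hens were given water, with 10 hens in each treatment. Follicles were taken 1 day after the drug was withdrawn, so the libraries show the cells after feeding had ended. All hens were otherwise untreated. The column names of the libraries of a group carry different numbers, read below as hen numbers, although no label says so. Messenger RNA was sequenced as 150 bp read pairs, and the other libraries of the series cover theca cells (TCs), 6 mm and F1 follicles and hens fed the antagonist bicalutamide. No allele or transgene is involved.

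The F5 follicle is the youngest of the yolk-filled hierarchy of the hen, a stage at which GCs leave an undifferentiated state and begin to make progesterone. Progesterone is made from cholesterol, which STAR carries into mitochondria, CYP11A1 cleaves to pregnenolone and HSD3B2 oxidises. GCs of the growing hierarchy also secrete inhibins, activins and follistatin, and they deposit zona pellucida proteins such as ZP3 on the oocyte. Mestanolone is an androgenic steroid that activates the androgen receptor, a transcription factor present in follicle cells. The comparison asks which transcripts of F5 GCs differ after such activation in the living hen.

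The total count per library ran from 49798409 to 62630917 in mes and from 43273632 to 55378619 in nc. Libraries resembled each other closely, with Spearman correlations of FPKM of 0.942 to 0.954 within mes, 0.934 to 0.949 within nc and 0.922 to 0.946 between mes and nc, over 20543 genes. FPKM, fragments scaled to transcript length and to library depth, is the level used below. The 11 granulosa markers summed to 5720, 6310 and 6051 FPKM in mes, against 9051, 8072 and 8001 FPKM in nc, with no overlap, and ZP3 made the largest part of each sum. The markers FSHR, FOXL2 and INHA were at 58.8 to 74.1, 405 to 627 and 799 to 1818 FPKM in mes, and at 47.6 to 65.3, 525 to 639 and 1596 to 2173 FPKM in nc. Summed FPKM of the 14 theca markers was 17.2, 15.1 and 78.0 in mes replicates 1, 2 and 3 and 10.3 to 15.3 in nc, against 10710 to 13670 in nc TCs of F5. Mes replicate 3 thus held more theca transcripts than the other 5 libraries. Nc replicate 1 stood apart in the mitochondrial genome, whose 13 genes summed to 63120 FPKM there, against 26530 to 31840 in mes and 27840 to 29760 in the other nc libraries. Nc replicate 2 stood apart in interferon genes, whose 30 members summed to 3062 FPKM, against 607 to 781 in mes and 606 to 637 in the other nc libraries.

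A gene was called where edgeR's adjusted p did not exceed 0.05 and mes or nc averaged 1 FPKM or more. By this rule 0 genes were called between mes and nc (0.0% of 15507 genes tested). The smallest adjusted p was 0.243. At an unadjusted p under 0.05 there were 1190 genes higher in mes (7.67%) and 1160 lower in mes (7.48%), and the median log2 fold change of all genes was 0.00. These unadjusted counts describe the table and are not calls. Their shares of all genes are the background for each count of list members in this fit at an unadjusted p under 0.05 below. Counts with a library left out have their own background, among 15988 to 16170 genes tested. Without mes replicates 1, 2 and 3 in turn, 743, 836 and 976 genes were higher and 605, 770 and 803 lower. Without nc replicates 1, 2 and 3 in turn, 1393, 1126 and 1115 were higher and 1003, 1114 and 1291 lower. DESeq2 on the counts of the 6 libraries called 270 genes higher (1.31% of 20543) and 184 lower (0.896%). A fit of edgeR that also held the 6 TC libraries of F5 called 102 higher (0.574% of 17769) and 31 lower (0.174%). In FPKM, the 3 mes libraries lay above the 3 nc libraries by a factor of 2 or more between the nearest in 108 of 12043 genes (0.897%), and below by that factor in 51 (0.423%). Without regard to size, the 3 mes libraries lay above all 3 nc libraries in 2048 genes (17.0%) and below them in 1461 (12.1%), which is the background for each statement below that groups did not overlap. Fewer transcripts per cell and fewer cells of a kind in a layer cannot be told apart in such RNA. The words higher and lower below give the direction of a value, and a p that misses the threshold does not show that the levels were the same. Fold changes are mes over nc on the log2 scale, with their standard error (SE).

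Cholesterol synthesis was the gene group with the most members lower in mes. Of 36 tested members of the list of cholesterol synthesis and uptake, 17 were lower at an unadjusted p under 0.05 and 1 was higher, beside 7.48% and 7.67% of all genes, and none passed the adjusted threshold. DESeq2 called 14 of the members lower and none higher, beside 0.896% of all genes called lower and 1.31% called higher. The median log2 fold change of the list was -0.68, beside 0.00 for all genes. With each of the 6 libraries left out in turn, between 14 and 19 members were lower at an unadjusted p under 0.05.

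The mevalonate part of the pathway builds isoprenoid units. MVK, which phosphorylates mevalonate, had 23.2, 24.1 and 26.8 FPKM in mes replicates 1 to 3, against 34.7, 43.1 and 40.2 FPKM in nc (log2 fold change -0.73, SE 0.15). PMVK, the next kinase, had 12.4, 13.2 and 15.4 FPKM in mes and 45.8, 26.3 and 18.8 FPKM in nc (-1.21, SE 0.35). The groups did not overlap for either gene. MVD (chr11:18665712-18668663 in Gallus_gallus-5.0), the decarboxylase that yields isopentenyl pyrophosphate, had the smallest p among the lower genes that have a symbol, 1 locus and a mean of 1 FPKM or more. It had 15.0, 16.4 and 14.1 FPKM in mes, against 43.3, 49.5 and 35.6 FPKM in nc. Its log2 fold change was -1.56 (SE 0.18, 95% interval -1.99 to -1.12, unadjusted p = 6.18e-05, edgeR adjusted p = 0.243). All 3 nc libraries of MVD lay above all 3 mes libraries.

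IDI1, the isomerase of that product, had 46.6, 76.8 and 75.9 FPKM in mes and 147, 165 and 123 FPKM in nc (-1.26, SE 0.25). FDPS (chr25:2170966-2195061), which joins the units to farnesyl pyrophosphate, had 13.7, 30.9 and 35.9 FPKM in mes, against 201, 199 and 103 FPKM in nc. This was a log2 fold change of -2.70 (SE 0.44, 95% interval -3.74 to -1.67, unadjusted p = 0.000455, adjusted p = 0.243), the lowest fitted value among the tested members of the list. HMGCS1, a synthase at the start of the pathway, could not be ranked, since it was listed at 0 in nc replicate 3 and at 39.3 and 80.6 FPKM in the other nc libraries, beside 8.43, 21.4 and 50.7 FPKM in mes.

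Steps from squalene to cholesterol ran the same way in most genes. SQLE, the squalene epoxidase, had 10.1, 24.1 and 25.5 FPKM in mes and 37.7, 84.0 and 55.2 FPKM in nc. LSS, which closes the sterol rings, had 6.00, 25.6 and 28.3 FPKM in mes and 54.5, 99.8 and 58.3 FPKM in nc (-1.89, SE 0.57). DHCR7, the last reductase, had 3.43, 13.1 and 14.5 FPKM in mes and 29.8, 51.2 and 33.8 FPKM in nc (-1.93, SE 0.61). Mes replicate 1 was the lowest of the 6 libraries in each of these genes, and in none did a mes library reach the nc range. CYP51A1, MSMO1, NSDHL, HSD17B7 and SC5D, which demethylate, reduce and desaturate the sterol rings, had log2 fold changes of -0.70, -1.55, -1.41, -1.71 and -1.17, with unadjusted p between 0.00249 and 0.043. FDFT1, which makes squalene, had 171, 215 and 205 FPKM in mes and 213, 246 and 249 FPKM in nc (-0.31, 95% interval -0.73 to 0.10), so that its groups overlapped. The transcription factor SREBF2, which activates these genes when sterol is scarce, had overlapping groups (-0.67, 95% interval -1.56 to 0.22).

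**Figure D1:**
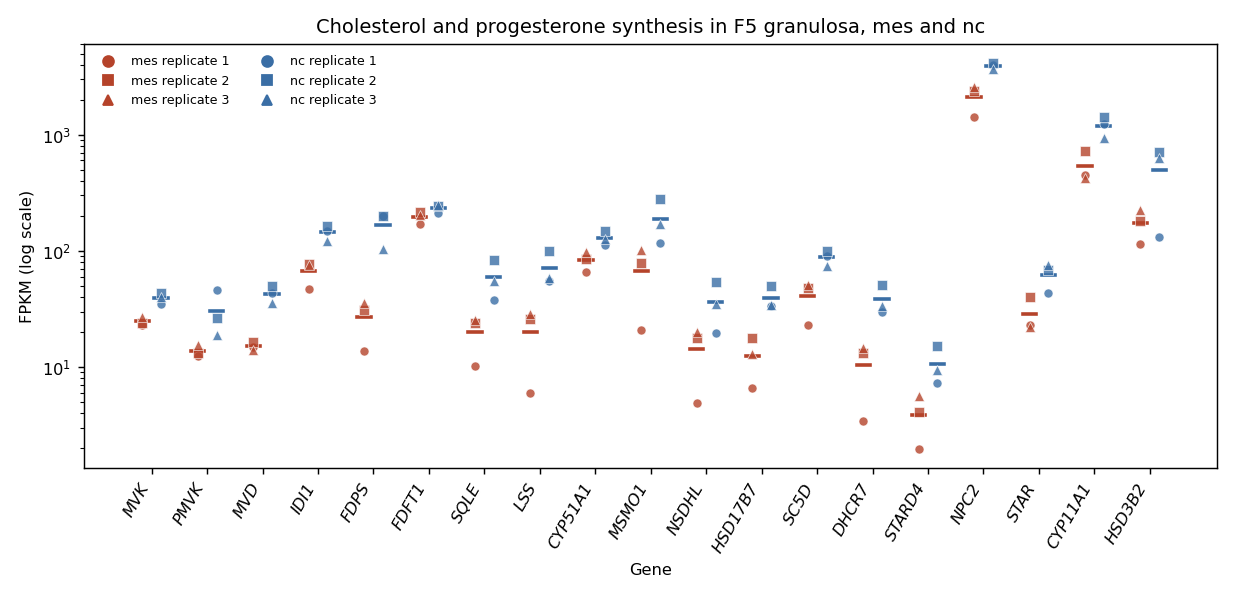
FPKM on a log axis of enzymes of cholesterol synthesis in pathway order, of the sterol carriers STARD4 and NPC2, and of STAR, CYP11A1 and HSD3B2, in the 3 mes libraries (red, left) and the 3 nc libraries (blue, right) of F5 GCs, with short lines at the means. Mes lay below nc in mean in every gene drawn, and the libraries of FDPS ran from 13.7 to 35.9 FPKM in mes and from 103 to 201 FPKM in nc.

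Sterol carriers moved with the enzymes in direction. STARD4, a cytosolic sterol transporter, had 1.97, 4.07 and 5.58 FPKM in mes and 7.22, 15.0 and 9.42 FPKM in nc. NPC2, which binds cholesterol in lysosomes, was among the most abundant transcripts of the list, with 1410, 2358 and 2570 FPKM in mes and 3981, 4121 and 3689 FPKM in nc (-0.95, SE 0.28). APOA1, the main protein of high-density lipoprotein, had 1027, 965 and 944 FPKM in mes and 1621, 1447 and 1670 FPKM in nc (-0.75, SE 0.17). Of the 36 tested members of the cholesterol list, 6 had a positive log2 fold change. The highest, 3.72, was that of ABCA1, which exports cholesterol from cells. ABCA1 had 3.16, 0.792 and 0.387 FPKM in mes and 0.102 and 0.209 FPKM in 2 nc libraries, while nc replicate 1 was listed at 0. Its levels were low in both groups.

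Steroid synthesis showed fewer members. Of 23 tested, 7 were lower (30.4%) and 1, the reductase AKR1D1, was higher (4.35%) at an unadjusted p under 0.05. The median log2 fold change was -0.18. The count of lower members was 3 without mes replicate 1 or 3, 4 without nc replicate 2 and 5 or 6 without 1 of the others. CYP11A1 had 449, 726 and 424 FPKM in mes, against 1230, 1429 and 929 FPKM in nc (-1.23, SE 0.29, unadjusted p = 0.00415, adjusted p = 0.258). STAR had 22.8, 40.3 and 22.1 FPKM in mes, against 43.1, 67.9 and 75.2 FPKM in nc (-1.19, SE 0.31). Neither gene overlapped between the groups, as 12.1% of all genes did in that direction, and the nearest libraries of STAR were 40.3 FPKM in mes and 43.1 FPKM in nc. HSD3B2 had 114, 181 and 226 FPKM in mes and 131, 709 and 635 FPKM in nc (-1.54, SE 0.60), so that nc replicate 1 lay within the mes range. Adrenodoxin FDX1 and its reductase FDXR, which pass electrons to CYP11A1, had log2 fold changes of -0.42 and -0.60. CYP17A1, the androgen-forming enzyme of TCs, was at 0.581, 0.708 and 7.27 FPKM in mes and 0.535, 1.74 and 1.11 FPKM in nc, and CYP19A1 was listed at 0 in 2 mes and 2 nc libraries, at 2.096 FPKM in mes replicate 3 and at 0.0411 FPKM in nc replicate 3. The high mes library in both was the one with the most theca transcripts, whose part in these values was not tested.

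The hormones and antagonists of the TGF-beta superfamily went in different directions. FST (chrZ:16072452-16078209), follistatin, which binds and inactivates activins, had 123, 65.6 and 74.0 FPKM in mes, against 15.1, 19.5 and 25.1 FPKM in nc. The lowest mes library was above the highest nc library by more than 2 times, with a log2 fold change of 2.11 (SE 0.30, 95% interval 1.39 to 2.83, unadjusted p = 0.000217, adjusted p = 0.243). TCs of F5 had 18.4 ± 6.25 FPKM of FST in mes and 14.1 ± 2.58 FPKM in nc (SD, n = 3 each), which is less than the level in any mes GC library. INHBA, the activin A subunit that FST binds as a dimer, had 4.37, 7.60 and 9.45 FPKM in mes, against 37.7, 16.8 and 14.3 FPKM in nc (-1.34, SE 0.31). INHBB, the activin B subunit, had 705, 413 and 130 FPKM in mes and 152, 55.9 and 87.3 FPKM in nc, with a wide spread and overlapping groups (1.29, 95% interval -0.17 to 2.75). INHA, the inhibin alpha subunit, had a log2 fold change of -0.42 (95% interval -1.21 to 0.36), and AMH, a hormone of undifferentiated GCs, one of 1.46 (95% interval -0.20 to 3.12).

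Targets of bone morphogenetic proteins, the ID genes, encode inhibitors of helix-loop-helix factors. ID1 had 38.0, 54.2 and 68.8 FPKM in mes and 202, 77.8 and 501 FPKM in nc (-2.33, SE 0.63), and ID3 had 112, 76.8 and 91.0 FPKM in mes and 213, 110 and 223 FPKM in nc (-1.02, SE 0.30). The mes library with the most ID3 was just above the lowest nc library, whereas the groups did not overlap for ID1. ID2 had a log2 fold change of -0.67 (SE 0.26). Over the 41 tested members of the list, 3 were higher (FST, BMP7 and GDF9, 7.32%) and 6 were lower (14.6%) at an unadjusted p under 0.05, with a median of 0.26. The higher members were 1 without mes replicate 1, 2 without mes replicate 2, nc replicate 2 or nc replicate 3, 5 without mes replicate 3 and 8 without nc replicate 1.

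**Figure D2:**
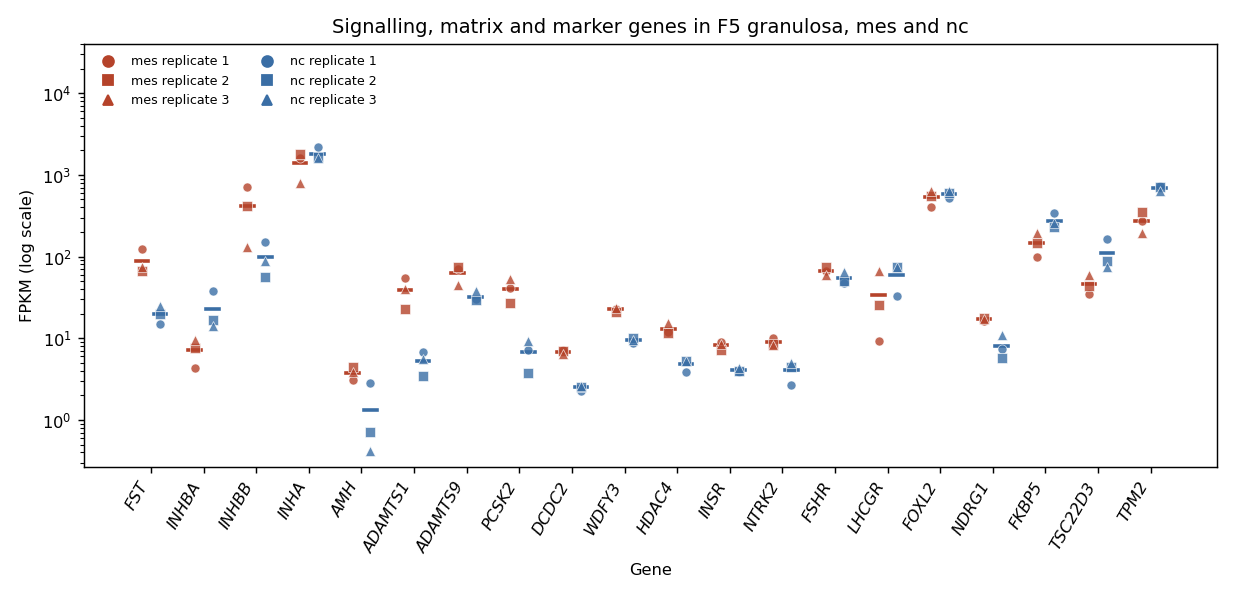
FPKM on a log axis of signalling, protease and marker genes in the 3 mes libraries (red, left) and the 3 nc libraries (blue, right) of F5 GCs, with short lines at the means. FST ran from 65.6 to 123 FPKM in mes and from 15.1 to 25.1 FPKM in nc, whereas the libraries of FOXL2 and LHCGR overlapped between mes and nc.

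Receptors for gonadotropins overlapped between the groups. FSHR, the follicle-stimulating hormone receptor, had 66.9, 74.1 and 58.8 FPKM in mes and 47.6, 50.5 and 65.3 FPKM in nc (0.23, 95% interval -0.19 to 0.66). LHCGR, the luteinizing hormone receptor acquired after selection, had 9.29, 25.7 and 67.0 FPKM in mes and 32.7, 73.8 and 73.8 FPKM in nc (-0.87, 95% interval -2.47 to 0.73). Of the 36 tested genes of receptors and cAMP signalling, 4 were higher (GNAI1, PRKAR1B, RGS5 and PDE3B) and 1, GNAI2, was lower at an unadjusted p under 0.05. These were 11.1% and 2.78% of the list, beside 7.67% and 7.48% of all genes. The inhibitory G protein subunit GNAI1 had a log2 fold change of 0.72 (SE 0.17), and the protein kinase A subunit PRKAR1B one of 0.56 (SE 0.17).

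Of 22 tested genes that respond to androgen in human prostate cells, 16 had a positive and 6 a negative log2 fold change, with a median of 0.18 (all genes 7787 and 7720, with a median of 0.00). Of the 22 genes, 3 were higher (NDRG1, NCOA1 and IGF1R, 13.6%) and 3 were lower (FKBP5, TSC22D3 and SGK1, 13.6%) at an unadjusted p under 0.05. Without mes replicate 2 or 3, 1 was higher. NDRG1, a gene raised by androgen there, had 16.4, 17.6 and 17.0 FPKM in mes, against 7.32, 5.77 and 10.9 FPKM in nc (1.03, SE 0.24). FKBP5, a steroid receptor cochaperone that androgen also raises there, had 98.6, 145 and 192 FPKM in mes, against 343, 227 and 255 FPKM in nc (-0.98, SE 0.29). TSC22D3, which glucocorticoid and androgen raise in mammals, had 34.9, 43.0 and 59.9 FPKM in mes, against 166, 87.2 and 75.3 FPKM in nc (-1.31, SE 0.36). The groups did not overlap for these 3 genes, beside 17.0% of all genes with mes above nc and 12.1% with mes below. Among the other nuclear receptors and their partners, 4 of 24 tested were higher (RORB, PPARG, NR1D2 and RXRA, 16.7%) and 1 was lower (4.17%) at an unadjusted p under 0.05. Without mes replicate 1, 2 were higher, and without nc replicate 1, 3 were higher and 3 lower. RORB, an orphan receptor, had 12.9, 10.0 and 13.6 FPKM in mes and 3.17, 6.04 and 3.49 FPKM in nc (1.46, SE 0.31). PPARG, a receptor for fatty acids, had 85.2, 55.2 and 61.3 FPKM in mes and 30.5, 43.9 and 47.8 FPKM in nc (0.83, SE 0.23). RARA, a retinoic acid receptor, was the lower one (-0.94, SE 0.31). ESR1, ESR2 and PGR, the receptors for estrogen and progesterone, had log2 fold changes of 0.41, -0.60 and -0.38 with intervals that included 0, and PGR did not exceed 0.0994 FPKM. NR5A1 and NR5A2, which activate steroidogenic genes, had -0.22 (95% interval -0.72 to 0.29) and 0.18 (95% interval -0.38 to 0.75).

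Growth factor and WNT genes with an unadjusted p under 0.05 were mostly higher in mes. Of 31 tested growth factors and receptors, 10 were higher (32.3%) and 2, FGF12 and ERBB2, were lower (6.45%), with a median of 0.57. Without mes replicate 3, nc replicate 2 or nc replicate 3, 6 were higher. INSR, the insulin receptor, had 8.88, 7.26 and 8.59 FPKM in mes, against 3.82, 3.95 and 4.37 FPKM in nc (0.97, SE 0.15), and the groups lay far apart against a small spread. NTRK2, the receptor of brain-derived neurotrophic factor, had 9.99, 8.54 and 8.19 FPKM in mes, against 2.70, 4.45 and 5.00 FPKM in nc (0.87, SE 0.17). EGFR, IGF1R and VEGFA, the receptors of epidermal and insulin-like growth factor and the vascular growth factor, had log2 fold changes of 0.81, 0.79 and 0.81. The lowest nc library in each of these was nc replicate 1. KITLG, the KIT ligand of GCs, had 4.04, 2.48 and 6.13 FPKM in mes and 0.321, 1.84 and 0.979 FPKM in nc (1.94, SE 0.68). Of 47 tested WNT, Hedgehog and Notch genes, 8 were higher (17.0%) and 2, GLI3 and DHH, were lower (4.26%), with a median of 0.41. Without mes replicate 1 or nc replicate 3, 4 were higher, and 5 without mes replicate 2. AXIN2, a target of WNT signalling, had 14.9, 14.0 and 13.9 FPKM in mes, against 8.37, 10.0 and 9.23 FPKM in nc (0.57, SE 0.16). The WNT receptor FZD1 had 64.7, 54.7 and 34.6 FPKM in mes and 3.40, 22.8 and 16.9 FPKM in nc (1.77, SE 0.63). LRP6, its coreceptor, had a log2 fold change of 1.16 (SE 0.37), and WNT9A, a ligand, one of 2.39 (SE 0.71).

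**Figure D3:**
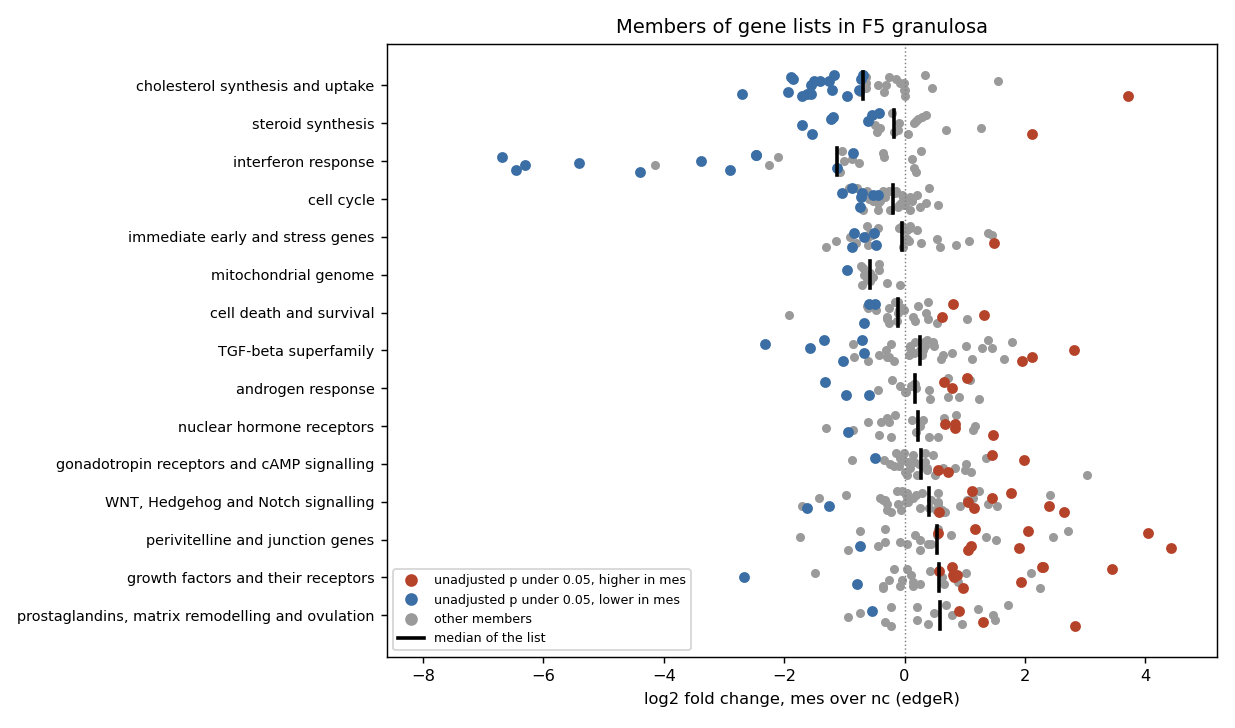
Log2 fold change, mes over nc in F5 GCs (edgeR), of each tested member of 15 gene lists, with the median of a list as a black bar; members at an unadjusted p under 0.05 are red where higher and blue where lower in mes, and no member passed the adjusted threshold. The median of the cholesterol list was -0.68 and that of the growth factor list 0.57, and the median of the interferon list, -1.13, was 0.04 without nc replicate 2.

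Proteases and the matrix included some of the smallest p among genes higher in mes. ADAMTS1 (chr1:103026753-103033674), a metalloprotease of the ovulatory matrix, had 53.95, 22.6 and 40.5 FPKM in mes, against 6.74, 3.42 and 5.56 FPKM in nc. Its log2 fold change was 2.84 (SE 0.39, 95% interval 1.91 to 3.77, unadjusted p = 0.000171, adjusted p = 0.243), and its mean in TCs of F5 was lower than in mes GCs, at 23.0 ± 6.11 FPKM in mes and 18.8 ± 2.13 FPKM in nc (SD, n = 3 each). ADAMTS9, a related protease, had 70.8, 74.5 and 44.5 FPKM in mes and 29.8, 29.7 and 37.5 FPKM in nc (0.91, SE 0.23). SERPINE2, a protease inhibitor, had a log2 fold change of 1.31 (SE 0.44). These 3 were the higher members among 20 tested genes of prostaglandins, matrix remodelling and ovulation, where 1, PTGES3, was lower, and the median of that list, 0.58, was -0.04 without mes replicate 3. PCSK2, a convertase that cleaves prohormones, had 41.1, 26.8 and 52.6 FPKM in mes, against 7.11, 3.78 and 9.25 FPKM in nc (2.53, SE 0.39), and 2.98 ± 0.772 FPKM in mes and 2.44 ± 0.913 FPKM in nc in TCs of F5 (SD, n = 3 each).

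Collagens were mostly higher in mes among members with an unadjusted p under 0.05. Of 32 tested, 11 were higher (34.4%) and 1 was lower (3.12%) at an unadjusted p under 0.05, with a median of 0.88. COL4A1 and COL4A2, the chains of basement membrane collagen, had 2.67, 1.17 and 6.67 FPKM and 2.31, 0.936 and 3.61 FPKM in mes, against 0.111 to 0.157 and 0.115 to 0.139 FPKM in nc. Their log2 fold changes were 4.43 (SE 0.69) and 4.05 (SE 0.55). COL5A2, a fibrillar collagen, had 30.8, 5.72 and 24.4 FPKM in mes and 3.50, 3.58 and 4.31 FPKM in nc (2.38, SE 0.57). COL4A1 and COL5A2 averaged 638 and 318 FPKM in nc TCs of F5, so the theca markers stand beside these values. As a percentage of the mean level in nc TCs of F5, DCN, the fibroblast proteoglycan decorin, was at 0.0171, 0 and 0.582% in mes replicates 1 to 3 and at most 0.0188% in nc. COL4A1 was at 0.418, 0.183 and 1.05% in mes and 0.0173 to 0.0245% in nc. The other theca markers differed among themselves in mes replicates 1 and 2. PDGFRB was at 9.11 and 3.43% there, against at most 1.67% in nc, and MYH11 at 5.48 and 5.68%, against at most 4.62% in nc. COL1A2 was at 0.373 and 0.298%, against at most 0.285% in nc, and LUM at 0 and 0.537%, against 0% in nc. Most theca markers, namely COL1A1, COL3A1, DCN, TAGLN, CYP17A1, CYP19A1, PDGFRA, ACTA2, DES and ACTG2, lay within or below the nc range in these mes replicates. The part of theca transcripts in the collagen values was not tested. Without mes replicate 3, 8 of the 32 collagens were higher and 2 were lower, with a median of 0.35, and without nc replicate 1 the count of higher collagens was 7.

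**Figure D4:**
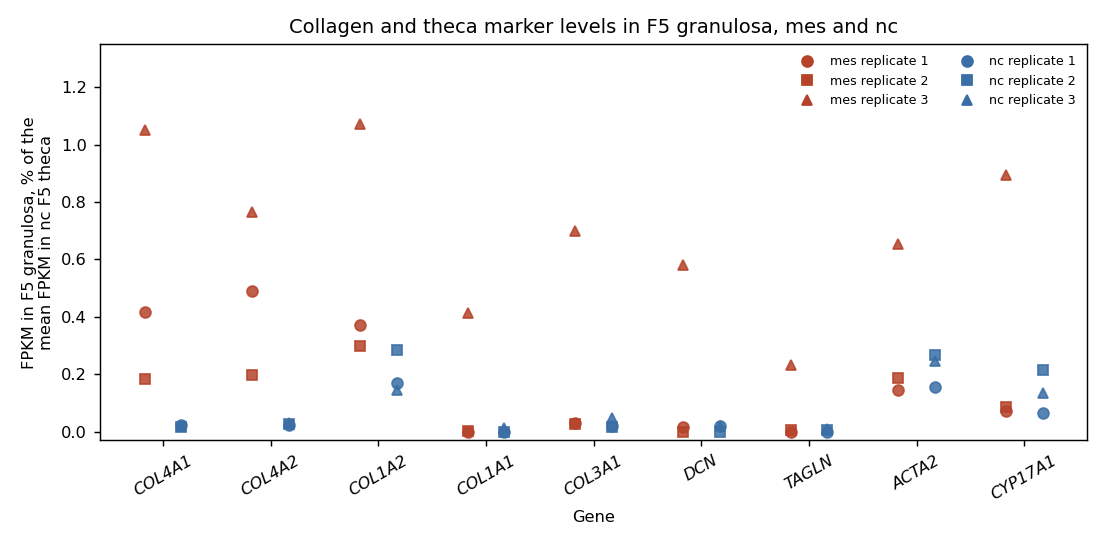
FPKM in each mes library (red, left) and nc library (blue, right) of F5 GCs as a percentage of the gene's mean FPKM in nc TCs of F5, for 5 collagens that TCs make and 4 further theca genes; PDGFRB and MYH11, at up to 9.11 and 6.18%, are not drawn. Mes replicate 3 (triangles) was highest for every gene drawn, and in mes replicates 1 and 2 COL4A1 and COL4A2 lay between 0.183 and 0.490%, against 0.0173 to 0.0295% in nc.

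The inner perivitelline layer and the junctions showed both directions. ZP3, its main zona pellucida protein, had 3029, 3250 and 3921 FPKM in mes, against 5955, 5185 and 5227 FPKM in nc (-0.74, SE 0.23), with no overlap. FN1, fibronectin, had 311, 232 and 190 FPKM in mes, against 58.9, 172 and 105 FPKM in nc (1.06, SE 0.40). Of 29 tested members 8 were higher (27.6%) at an unadjusted p under 0.05, among them both type IV collagens, and 1, ZP3, was lower (3.45%).

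Other genes with the smallest p were spread over functions. DCDC2 (chr2:58071411-58131296), a microtubule-binding protein of cilia, had 7.18, 6.98 and 6.37 FPKM in mes, against 2.29, 2.56 and 2.63 FPKM in nc (1.42, SE 0.17). WDFY3 (chr4:47166002-47306100), a scaffold of selective autophagy, had 23.1, 21.2 and 23.8 FPKM in mes, against 8.83, 9.97 and 9.49 FPKM in nc (1.22, SE 0.15). The spread within each group was small in both genes. HDAC4, a histone deacetylase, had 11.9, 11.5 and 15.4 FPKM in mes and 3.86, 5.23 and 5.33 FPKM in nc, and STXBP5L, a regulator of vesicle fusion, 12.7, 9.96 and 9.82 FPKM in mes and 3.46, 4.65 and 4.79 FPKM in nc. MRC2, a receptor that takes up collagen, TMEM2, a hyaluronidase, and GDA, the guanine deaminase, complete the 12 higher genes of smallest p, with log2 fold changes of 2.17, 2.91 and 2.93. Their levels were at most 9.88, 1.23 and 2.20 FPKM in mes.

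On the lower side, TPM2, a tropomyosin, had 271, 354 and 192 FPKM in mes, against 722, 710 and 632 FPKM in nc (-1.40, SE 0.25). MCF2L, a guanine nucleotide exchange factor, had 0.190, 0.345 and 0.272 FPKM in mes, against 1.78, 2.54 and 4.41 FPKM in nc (-3.34, SE 0.41). CENPF, a kinetochore protein, had 2.93, 3.18 and 3.44 FPKM in mes, against 5.64, 6.27 and 7.00 FPKM in nc (-1.04, SE 0.16). Of 40 tested cell cycle genes 7 were lower (17.5%) and none was higher at an unadjusted p under 0.05. The median was -0.195, or -0.01 without mes replicate 3, and 4 were lower without nc replicate 2 or 3. CENPE, a kinetochore motor, and CDK1, the mitotic kinase, had log2 fold changes of -0.74 and -0.87. HMGN5, a nucleosome-binding protein, and POMP, a proteasome assembly factor, had small fold changes of -0.76 and -0.73 with tight groups, 68.6 to 77.5 FPKM in mes and 116 to 121 FPKM in nc for HMGN5, and 50.6 to 56.0 FPKM in mes and 79.8 to 91.0 FPKM in nc for POMP. DMB2, a class II MHC chain, GATSL3, an arginine sensor, PPAPDC3, RP4-539M6.19 and RAP1GDS1L had log2 fold changes of -1.40, -1.20, -1.60, -1.70 and -1.83.

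Lists of cell death and of stress genes gave mixed counts at an unadjusted p under 0.05. Of 29 tested cell death genes 3 were higher (10.3%), FOXO1 and XIAP among them, and 3 were lower (BCL2L1, FOXO3 and CASP8, 10.3%). Of 35 tested stress genes 1 was higher (FOSL2, 2.86%) and 5 were lower (ATF4, XBP1, HSP90AB1, HSPA5 and DNAJA1, 14.3%). No cell death gene was lower without mes replicate 1 and 1 without mes replicate 2 or 3, and 3 stress genes were lower without mes replicate 1 or 3. FOXO1, a factor active when insulin signalling is low, had 25.6, 18.1 and 34.9 FPKM in mes and 6.12, 12.4 and 11.6 FPKM in nc (1.32, SE 0.34). HSPA5, the chaperone of the endoplasmic reticulum, had 649, 702 and 397 FPKM in mes and 1328, 968 and 774 FPKM in nc (-0.88, SE 0.31), and the stress factors ATF4 and XBP1 had -0.84 and -0.50. Of 12 translocon genes 2 were lower (5 without nc replicate 1), SEC61G and SSR4, with -1.03 and -0.85, and SEC61A2, the other form of the channel subunit, had -0.58 (95% interval -1.26 to 0.11). Of 224 tested solute carriers 21 were higher (9.38%) and 10 were lower (4.46%), beside the 7.67% and 7.48% of all genes, and 9 were higher and 4 lower without mes replicate 1 and 12 and 5 without mes replicate 2. Among them were SLC2A13, a myo-inositol transporter, at 1.08 and SLC2A9, a urate transporter, at 0.69. SLC12A2, the sodium, potassium and chloride cotransporter, was at 0.00 (95% interval -0.59 to 0.59). Of 49 potassium channel genes 5 were higher (10.2%) and 5 were lower (10.2%), beside the same 7.67% and 7.48% of all genes. Without mes replicate 3, 8 were higher, and 3 were lower without mes replicate 1 or 2 or nc replicate 1 or 2. The smallest p were those of KCNJ11 at -2.33 and KCNA5 at 1.08. Among 13 phospholipid flippases 1 was higher (7.69%), ATP8A2, at 2.06, while ATP9B had 0.61 and ATP8A1 -0.34 (95% interval -0.94 to 0.26).

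Interferon genes were lower in mes in 11 of 25 tested members (44.0%) and higher in none at an unadjusted p under 0.05. TAP1, a peptide transporter of antigen presentation, had 3.62, 2.65 and 2.71 FPKM in mes, against 5.70, 51.4 and 6.80 FPKM in nc. Its partner TAP2 had 8.07, 5.63 and 6.53 FPKM in mes, against 9.83, 82.9 and 13.9 FPKM in nc. In both genes nc replicate 2 was far above the other 5 libraries. Without nc replicate 2, 2 members were lower and the median of the list was 0.04, beside -1.13 with it. Without any one mes library 1 or 2 members were lower, and without nc replicate 1 or 3 there were 15 or 16. The column name of nc replicate 2 carries the number 2, read here as that of a hen. The summed FPKM of the list was also high in the other nc libraries with that number, at 1842 in 6 mm GCs, 3366 in F5 TCs and 3611 and 4035 in F1 GCs. Ribosomal protein genes and mitochondrial genes had medians of -0.38 and -0.57, with 2 of 71 and 1 of 13 lower at an unadjusted p under 0.05. Their medians were -0.11 and -0.09 without nc replicate 1, and without mes replicate 3 the count of lower ribosomal genes was 29. RPL38 and ND6 were highest in nc replicate 1, at 463 and 1530 FPKM, against 158 to 211 and 432 to 636 FPKM in mes. RPS27L and COX3 had log2 fold changes of -0.72 and -0.57.

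Fold changes also varied with transcript length. The median log2 fold change was -0.25 in genes whose longest transcript had up to 2007 bases, -0.02 in those of 2008 to 4047 bases and 0.24 in those of 4048 bases or more, 3 classes of nearly equal size. Without nc replicate 1 these medians were -0.09, -0.01 and 0.15. With the trend of each library with length removed, 993 of 15507 genes were higher and 1071 lower at an unadjusted p under 0.05. The cholesterol list then had 17 of 36 members lower and a median of -0.71. The collagens then had 10 higher and a median of 0.59. In the same fit the solute carriers had 16 higher and 15 lower, the nuclear receptors 4 higher and 4 lower, and the perivitelline and junction genes 5 higher and 1 lower. The part of length in single genes was not tested.

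Of the markers of cells other than GCs and TCs, some were near 0 and some were not. Red cell globins HBAD and HBAA did not exceed 0.516 and 1.01 FPKM in any of the 6 libraries. The red cell list had no tested member of 3 at an unadjusted p under 0.05, and its most abundant gene, HEMGN, had 509, 473 and 470 FPKM in mes and 784, 509 and 484 FPKM in nc. Leukocyte markers, 5 tested, and endothelial markers, 6 tested, had none either. The 12 leukocyte markers summed to 77.3, 10.2 and 149 FPKM in mes and 29.8, 106 and 29.8 FPKM in nc. The 9 endothelial markers summed to 52.2 to 73.4 FPKM in mes and 47.7 to 63.3 FPKM in nc. EGFL7 made the largest part of each endothelial sum, at 105 to 170% of its mean level in nc TCs of F5. VWF and CDH5 did not exceed 0.232 and 0.258 FPKM. CD74 was at 75.6, 7.73 and 147 FPKM in mes and 26.0, 104 and 28.2 FPKM in nc, while CD3D had a log2 fold change of -1.26, EGFL7 0.25 and PECAM1 -0.37, all with intervals that included 0. Of 9 tested theca markers 2 were higher in mes and none was lower, and 1 was higher without mes replicate 3 or nc replicate 3. The median of this list, 1.475, was -0.519 without mes replicate 3. PDGFRB, a receptor of stromal cells, had 2.54, 0.956 and 1.51 FPKM in mes, against 0.310, 0.465 and 0.388 FPKM in nc, and COL1A2 had 7.66, 6.12 and 21.9 FPKM in mes, against 3.51, 5.86 and 2.98 FPKM in nc. Of 10 tested granulosa markers 2, INHBA and ZP3, were lower and none was higher. Of 6 tested oocyte markers 1 was higher, GDF9, a factor that oocytes secrete. Without nc replicate 1 the fit tested 8 of these markers, and 6 of the 8 were higher. None was higher without mes replicate 1 or 2 or nc replicate 2, and 1 without mes replicate 3 or nc replicate 3. ZP2 had 8.23, 7.16 and 5.49 FPKM in mes, against 2.25 and 0.535 FPKM in 2 nc libraries and a listed 0 in nc replicate 3, while BMP15, an oocyte growth factor, did not exceed 1.48 FPKM.

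The effect of mes at F5 was then set against its effect in other GCs and in TCs, with the difference of the log2 fold changes tested by edgeR. These tests share the 6 F5 GC libraries, so their results are not independent of each other. The label F1 belongs to the largest follicle. In hens given the drugs, the paper also labelled as F1 every follicle left without a label. Whether mes and nc differed in stage at F1 was not tested. Set against F1, 55 genes had a higher effect at F5 (0.322% of 17071) and 30 a lower one (0.176%). In this test the 2 nc libraries of F1 that carry the same hen and library number were summed. With the hen as a block, none passed. The count ran from 3 without nc.F5.G replicate 1 to 1425 without mes100.F1.G replicate 2, so it depends on single libraries of either stage.

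INSR was among these genes, at 8.25 ± 0.864 FPKM in mes and 4.05 ± 0.285 FPKM in nc at F5, and at 17.7 ± 7.88 FPKM in mes at F1 (SD, n = 3 in each), where its mean in nc was 80.0 FPKM. Means of nc at F1 are given with no SD, since 2 of the 3 libraries share a number. The difference of its effects was 3.41 (SE 0.49, adjusted p = 0.029). NTRK2, ADAMTS9 and SEMA3D, an axon guidance ligand, also had higher values in mes at F5 and lower ones in mes at F1, with differences of 2.04, 4.43 and 5.02 (adjusted p of 0.046, 0.046 and 0.032). The 5 genes of smallest p in this test, among those with a symbol that does not start with LOC, 1 locus and a mean of 1 FPKM or more, had overlapping groups or small log2 effects at F5, between -0.48 and 1.01. MASTL, a mitotic kinase, had 2.60 ± 0.765 FPKM in mes and 1.98 ± 0.508 FPKM in nc at F5, and 0.0663 ± 0.0261 FPKM in mes at F1 (SD, n = 3 in each), where nc averaged 2.62 FPKM. MYBL1, a MYB transcription factor, had 12.6 ± 0.354 FPKM in mes and 13.2 ± 1.04 FPKM in nc at F5, and 4.69 ± 0.983 FPKM in mes at F1 (SD, n = 3 in each), where nc averaged 0.310 FPKM. HMOX1, the heme oxygenase, had 1.88 ± 0.241 FPKM in mes and 2.51 ± 0.693 FPKM in nc at F5, and 5.30 ± 3.25 FPKM in mes at F1 (SD, n = 3 in each), where nc averaged 227 FPKM. SHCBP1 and GABRR2 followed, with differences of 5.40 and 7.52, and GABRR2 did not exceed 0.0477 FPKM in F5 GCs.

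Against 6 mm follicles, which have not been selected, and against TCs of F5, no difference passed the threshold (0.0% of 17676 and 0.0% of 17769). At an unadjusted p under 0.05 there were 1577 (8.92%) and 2006 (11.3%) genes, and DESeq2 called 368 and 465. The nc libraries on the other side were not pure, with summed theca markers of 2872 and 3163 FPKM in 2 nc libraries of 6 mm GCs, against 31.4 to 65.7 FPKM in mes, and summed granulosa markers of 1071 to 3884 FPKM in nc TCs, against 575 to 1067 FPKM in mes TCs. By the same restriction, the 5 genes of smallest p against 6 mm were LAMA4, GPR162, HSD17B2, LEO1 and ANTXRL, each with an adjusted p of 0.312. LAMA4, a laminin chain, had 0.929 ± 0.520 FPKM in mes and 0.147 ± 0.0846 FPKM in nc at F5, and 0.705 ± 0.175 FPKM in mes and 6.99 ± 3.03 FPKM in nc at 6 mm (SD, n = 3 each), and LAMA4 and the theca marker DCN were the 2 genes called with the hen as a block. LEO1, a subunit of a transcription elongation complex, had a log2 effect of -0.20 at F5 and 1.01 at 6 mm. Against TCs they were ETV4, TMEM2, AKAP7, COL4A2 and SEMA3D, with adjusted p of 0.062 to 0.117. AKAP7, an anchor of protein kinase A, had 31.6, 23.9 and 20.7 FPKM in mes, against 8.90, 10.0 and 10.4 FPKM in nc GCs of F5, and 9.66 ± 1.38 FPKM in mes and 12.9 ± 0.995 FPKM in nc TCs (SD, n = 3 each). ETV4 was listed at 0 in the 3 nc GC libraries and did not exceed 0.152 FPKM in mes.

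Levels across stages place the F5 values. FST was at 680 ± 94.7 FPKM in mes and 310 ± 134 FPKM in nc at 6 mm, at 87.6 ± 31.2 FPKM in mes and 19.9 ± 4.99 FPKM in nc at F5, and at 1.92 ± 1.00 FPKM in mes at F1 (SD, n = 3 in each), where nc averaged 2.05 FPKM. The means of FDPS ran the other way in nc, whereas in mes the F5 mean was the lowest of the 3 stages. FDPS was at 43.8 ± 3.82 FPKM in mes and 76.9 ± 19.2 FPKM in nc at 6 mm, at 26.8 ± 11.6 FPKM in mes and 168 ± 56.2 FPKM in nc at F5, and at 507 ± 360 FPKM in mes at F1 (SD, n = 3 in each), where nc averaged 1113 FPKM. At F5 the mes mean of FST therefore lay between the nc means of 6 mm and F5, and that of FDPS below the nc means of all 3 stages. CYP11A1 was at 23.5 ± 21.1 FPKM in mes and 110 ± 88.6 FPKM in nc at 6 mm, at 533 ± 168 FPKM in mes and 1196 ± 252 FPKM in nc at F5, and at 2662 ± 706 FPKM in mes at F1 (SD, n = 3 in each), where nc averaged 2361 FPKM. The nc means at 6 mm include nc replicates 1 and 3, whose theca markers summed to 2872 and 3163 FPKM. In nc TCs of F5, FST, FDPS and CYP11A1 averaged 14.1, 190 and 775 FPKM. The part of theca transcripts in the 6 mm values was not tested. These levels across stages were not tested within mes or nc.

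**Figure D5:**
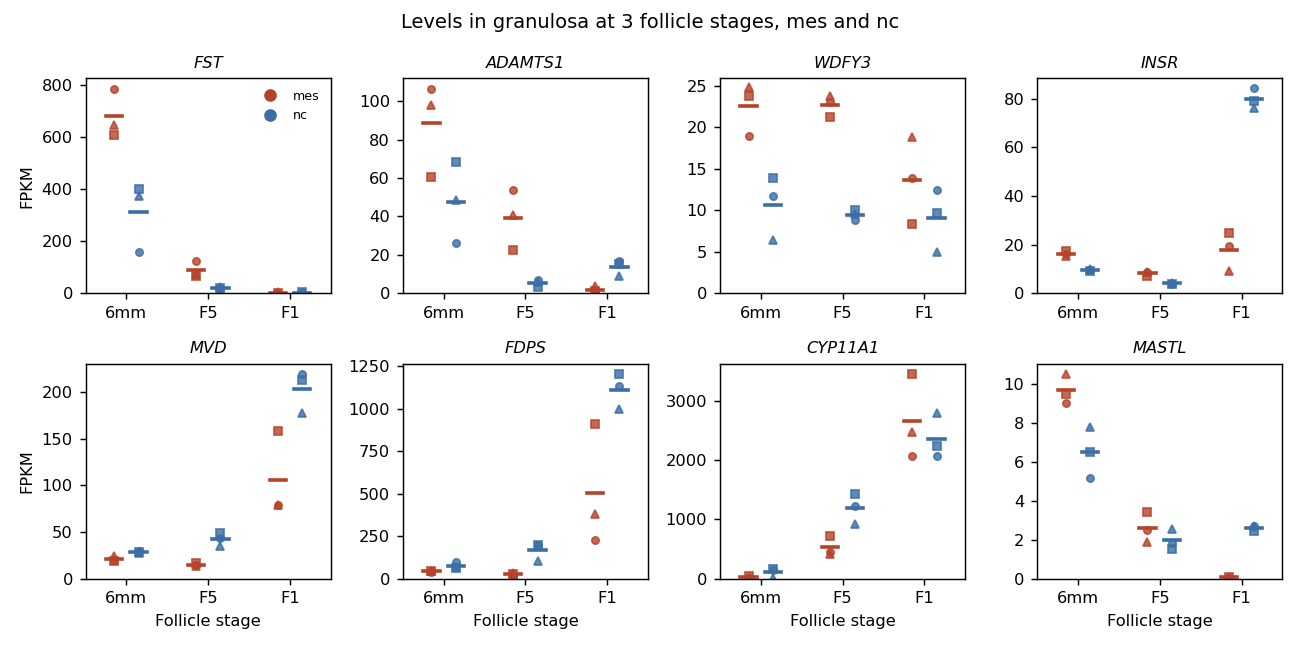
FPKM of 8 genes in GCs of 6 mm, F5 and F1 follicles, with mes libraries in red to the left of nc libraries in blue at each stage and short lines at the means. At F5 mes lay above nc for FST, ADAMTS1, WDFY3 and INSR and below nc for MVD, FDPS and CYP11A1, and INSR in nc was highest at F1, at a mean of 80.0 FPKM. At 6 mm, nc replicates 1 and 3 held summed theca markers of 2872 and 3163 FPKM.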

How the data were processed

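RNA of GCs and TCs was sequenced by the authors in 54 libraries of 18 groups. They trimmed reads with Cutadapt, aligned them with HISAT2 2.1.0, removed duplicates and quantified genes with StringTie 1.3.4d on Gallus_gallus-5.0, with gene IDs in the form of NCBI's annotation. A deposited count is the coverage from StringTie multiplied by transcript length, over 75 and rounded up, so a read pair adds up to 4 counts. FPKM, among the other values deposited per transcript, was summed per gene. Rows that name no gene, 5 in all, held 0.0898 to 0.439% of counts and were left out. Of the columns of the authors' table none belongs to another series.

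Counts were tested with edgeR 4.0.16 in R 4.3.3 (quasi-likelihood F test, TMM, low-count filter, Benjamini-Hochberg adjustment over all genes), each fit holding the groups it compares. The SE is the log2 fold change divided by the square root of F. Alternatives used DESeq2 1.42.0, limma 3.58.1 (voom), RLE factors, other filters, counts divided by 4, other sets of libraries and left-out libraries, and removal of each library's trend with transcript length, which was chosen after seeing the data. The edgeR fits of the main comparison and of a difference of effects were run on simulated counts with known fold changes. These counts held no library that stood apart and no trend with transcript length, and the alternatives were not run on them. The column names give the 3 libraries of mes, and of nc, at F5 different numbers. If these number the hens, as they are read here, p-values measure the spread between hens.

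The members and the 27 gene lists were chosen with earlier results of these data known. Named genes are the 12 of smallest p in each direction with a symbol not starting with LOC, 1 locus and 1 FPKM or more in mean, the 2 of smallest p in each list, a fixed set of follicle genes and the 5 of smallest p in each difference of effects. Further list members (such as HMGCS1, PMVK, SQLE, LSS, DHCR7, ID1, EGFR, FZD1, KITLG, COL5A2, FN1 and HSPA5, and those given only by name) were named after their values were seen. The results of some genes of the rule are not reported here.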

Additional observations from a re-analysis of the deposited data

Results flagged for a closer look

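For 9 named genes the effect of mes in GCs differed between F5 and F1 by edgeR's test of the difference at an adjusted p of at most 0.05. The log2 effect at F5 minus that at F1 was 5.86 for MASTL, 5.40 for SHCBP1, 7.52 for GABRR2, 5.29 for HMOX1 and -3.67 for MYBL1, the genes of smallest p among those with a symbol not starting with LOC, 1 locus and a mean of 1 FPKM or more. It was 3.41 for INSR, 2.04 for NTRK2, 4.43 for ADAMTS9 and 5.02 for SEMA3D. The nc side at F1 rests on libraries with 2 numbers, read as 2 hens, and with the hen as a block no gene passed. In hens given the drugs the paper labelled as F1 every follicle left without a label. Whether mes and nc differed in stage at F1 was not tested. A cause was not tested.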

How the results depend on the processing

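Calls in F5 GCs were 0 with edgeR, 454 with DESeq2, 133 with all F5 libraries of mes and nc in the fit and 1, MCF2L, with all granulosa libraries in the fit. With a library left out they were 0 to 1, the genes being LOC107054921 without mes replicate 2 and LOC107056605 without nc replicate 1. Genes at an unadjusted p under 0.05 numbered 2350, 3608 with all F5 libraries in the fit and 1348 to 2406 with a library left out. Genes separated by a factor of 2 numbered 159, 399 at a factor of 1.5 and 235 to 306 with a library left out. The difference with F5 TCs gave 0, 465 by DESeq2, 8 by limma-voom, 1 (ETV4) without a low-count filter and 0 to 153 with a library left out, 153 without nc TC replicate 1. The difference with 6 mm GCs gave 0, 368 by DESeq2, 2 with the hen as a replicate block and 0 to 160 with a library left out, 160 without nc 6 mm replicate 2. The difference with F1 GCs gave 85, 1233 by DESeq2, 1852 by limma-voom, 668 with libraries as labelled, 0 with the hen as a replicate block and 3 to 1425 with a library left out. The cause of these changes was not tested.

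Of 134 named genes tested, 126 kept their direction under all alternatives run. Many of them were picked by their p or values in these same libraries, so a kept direction is not independent support. With limma-voom CD74 was at -1.08, PECAM1 at 0.066, CYP17A1 at -0.45, ESR1 at -0.61 and HMGCS1 at 4.499, and with the length trend removed FOXL2 was at 0.033. SLC12A2, at 0.00, was at 0.004 with DESeq2 and with RLE factors, 0.045 with all F5 libraries, 0.005 with counts divided by 4, 0.002 without a filter, 0.006 with genes of mean FPKM of 1 or more and 0.022 with the replicate block. With a library left out, log2 fold changes ran from -0.395 to 1.46 for CD74, -0.648 to 0.001 for PECAM1, -0.873 to 1.76 for CYP17A1, -0.757 to 0.884 for ESR1, -0.008 to 0.385 for NR5A2, -0.186 to 0.164 for SLC12A2 and -1.47 to 0.289 for HMGCS1, and CD74, CYP17A1 and ESR1 were lowest without mes replicate 3.

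Replicate numbers do not pair mes and nc, which are different hens: deviations of same-numbered libraries correlated at 0.0300, 0.00123 and 0.0307. With the replicate block 0 genes were called and 2049 were at an unadjusted p under 0.05. Levels far below 1 FPKM rest on few reads.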
